A study of Mus musculus with 8 samples.

Results

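The 267 genes described here are the mouse protein-coding genes with a Zfp name and number that were expressed in cultured lung group 2 innate lymphoid cells (ILC2s). They were chosen from the deposited table as the genes whose FPKM (fragments counted on a gene, divided by gene length and by the size of that library) was at least 1 in at least 2 of 8 libraries. Another 97 of the 364 protein-coding Zfp genes lay below that level, and 11877 of all 22075 genes in the table reached it. Because level chose the members, their presence is not a result, and 3 of them reached 1 FPKM in libraries of 1 group only: Zfp105 in STAT3-KO with IL-33, Zfp940 in STAT3-KO control and Zfp383 in WT control. The group that admitted these 3 had to stand out, so their calls, which are in the counts below, support nothing. The same holds for IL-33 calls of members that reached 1 FPKM only under 1 treatment. Examples are Zfp385a (only with IL-33) and Zfp945 (only in control). Just inside the threshold, the second highest value was 1.01 FPKM for Zfp787, 1.16 FPKM for Zfp383 and 1.17 FPKM for Zfp945. Just outside it was 0.943 FPKM for Zfp839, 0.922 FPKM for Zfp277 and 0.911 FPKM for Zfp316.

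A Zfp name says that a protein carries zinc fingers, small folds held together by a zinc ion, and not what the protein does. Most such proteins in mammals have C2H2 fingers that read DNA, often joined to a KRAB domain. Many KRAB domains recruit the co-repressor Trim28 (KAP1) and with it histone methylation and DNA methylation. Many KRAB proteins silence transposable elements, and their genes lie in clusters of near relatives. The CCCH proteins Zfp36, Zfp36l1 and Zfp36l2 are different in kind, since they bind AU-rich elements of mRNA and call in deadenylases, which limits the output of cytokine mRNAs in lymphocytes.

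The libraries came from ILC2s, innate lymphocytes of barrier tissue that release type 2 cytokines, taken from lungs of C57BL/6 mice briefly exposed to papain. STAT3-KO cells carried floxed Stat3 and Vav-iCre (VavicreStat3fl/fl), a recombinase active in blood cells, and WT cells carried floxed Stat3 alone (Stat3fl/fl), so loss of STAT3 and presence of Vav-iCre cannot be told apart. After about 5 days in 10 ng/ml IL-2, cells received 10 ng/ml IL-33, an alarm cytokine of damaged epithelium that activates ILC2s, for 2 days, or served as controls, for which no medium is described over that time. Each of the 4 groups (STAT3-KO given IL-33, STAT3-KO control, WT given IL-33, WT control) had 2 libraries. The labels do not say whether replicates were separate mice or cultures, so p-values measure the spread between these libraries, which may be technical.

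Depth, read back from the FPKM steps, was between 15843647 and 19903604 reads per library, at which 3 reads in 1 kb stood for 0.151 to 0.189 FPKM (counting error only). Stat3 itself had 8.03 and 9.69 FPKM in STAT3-KO with IL-33, 15.3 and 16.0 FPKM in STAT3-KO control, 49.0 and 55.3 FPKM in WT with IL-33 and 41.7 and 50.7 FPKM in WT control. Its mRNA was thus lower in every STAT3-KO library but not absent. All 12 ILC2 markers averaged at least 1 FPKM in each group; their sum was 3726 to 4096 FPKM in STAT3-KO with IL-33, 3349 to 3380 FPKM in STAT3-KO control, 10461 to 11259 FPKM in WT with IL-33 and 3541 to 3667 FPKM in WT control. With IL-33, 8 of the 12 fell and 4 rose in STAT3-KO (median −1.17), 3 fell and 5 rose in WT (median 0.26), and 10 were lower and 0 higher in STAT3-KO than in WT (median −1.42). By the same test, described below, 30.6% of all genes tested fell and 20.4% rose in STAT3-KO, and 21.6% fell and 14.5% rose in WT. With IL-33, 16.4% were lower and 16.3% higher in STAT3-KO than in WT. Summed mast cell and basophil markers, of which 2 of 4 were in the table, were 7.49 to 7.77 FPKM in STAT3-KO with IL-33, 111 to 140 FPKM in STAT3-KO control, 127 to 155 FPKM in WT with IL-33 and 299 to 326 FPKM in WT control. Behind this sum, 1 of the 2 rose and 1 fell with IL-33 in WT (median 1.80), and 0 rose and 1 fell in STAT3-KO. Summed NK cell and ILC1 markers were 4.44 to 4.98 FPKM in STAT3-KO with IL-33 (2 of 4 at 0), 20.2 to 21.2 FPKM in STAT3-KO control (1 at 0), at most 0.444 FPKM in WT with IL-33 (3 at 0) and 3.04 to 4.55 FPKM in WT control (1 at 0). Only 1 of the 4 reached the level to be tested, and it made up most of the sum in STAT3-KO control. That gene was called higher in STAT3-KO than in WT, both in control (2.23) and with IL-33 (2.19). The part of these markers in the results below was not tested.

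By the deposited annotation of protein domains, 156 members had a KRAB domain, 10 a SCAN domain (a dimerisation domain found beside C2H2 fingers), 66 a C2H2 finger as their listed hit, 3 a CCCH type and 32 another hit. The members were spread over most chromosomes, with 65 on chromosome 7, 40 on chromosome 17 and 28 on chromosome 13. Members were expressed at low levels: the median of their means over 8 libraries was 3.35 FPKM, against 5.76 FPKM for all genes tested, with a range of 0.648 to 66.3 FPKM. Of the 267, 171 were at 1 FPKM or more in all 8 libraries, 96 averaged at least 5 FPKM and 11 at least 20 FPKM.

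Promoter sequence is shown for members of 1 stretch of chromosome 17 that went against the trend of the family, and for Zfp36. The test called the IL-33 response of Zfp36 different between genotypes, a call that most fits leaving out a library lost. RefSeq windows on GRCm38.p6, from 250 bases before to 50 bases after a transcript start, were found for 231 of 267 members (272 windows). A run of letters, AAGCCTNAGACNNAG (N is any base), was noticed by eye in 3 windows of the chromosome 17 stretch. It was then searched in 5 versions over all 32851 windows. This version was kept. It occurred on the gene's strand in 4 windows, those of Zfp53, Zfp52, Zfp948 and Zfp820, and on the opposite strand in 1 window, that of Gm36196, or 0.0152% of windows in all. A shorter version without its last 4 letters, AAGCCTNAGAC, occurred in 12 windows on the gene's strand and 13 on the opposite strand, so the count depends on how much of the run is asked for. The 250 bases before the start are printed 5′ to 3′ on the gene's strand with that run in capitals (Zfp53, chr17:21488738-21488987, plus strand; Zfp52, chr17:21535289-21535538, plus strand; Zfp948, chr17:21566728-21566977, plus strand; Zfp820, chr17:21845760-21846009, minus strand).
Zfp53: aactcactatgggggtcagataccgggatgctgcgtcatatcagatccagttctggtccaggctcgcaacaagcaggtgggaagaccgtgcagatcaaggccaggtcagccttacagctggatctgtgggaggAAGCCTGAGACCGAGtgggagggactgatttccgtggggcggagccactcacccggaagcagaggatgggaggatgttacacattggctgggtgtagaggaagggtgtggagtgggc
Zfp52: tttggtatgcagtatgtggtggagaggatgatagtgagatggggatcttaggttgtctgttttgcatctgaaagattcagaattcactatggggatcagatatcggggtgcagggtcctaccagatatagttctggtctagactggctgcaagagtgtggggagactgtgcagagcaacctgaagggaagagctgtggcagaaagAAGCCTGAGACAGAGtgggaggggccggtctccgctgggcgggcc
Zfp948: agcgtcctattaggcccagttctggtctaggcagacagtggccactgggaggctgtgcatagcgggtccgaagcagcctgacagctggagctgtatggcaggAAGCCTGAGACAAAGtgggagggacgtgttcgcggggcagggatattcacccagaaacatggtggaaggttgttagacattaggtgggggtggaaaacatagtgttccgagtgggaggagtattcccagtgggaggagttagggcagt
Zfp820: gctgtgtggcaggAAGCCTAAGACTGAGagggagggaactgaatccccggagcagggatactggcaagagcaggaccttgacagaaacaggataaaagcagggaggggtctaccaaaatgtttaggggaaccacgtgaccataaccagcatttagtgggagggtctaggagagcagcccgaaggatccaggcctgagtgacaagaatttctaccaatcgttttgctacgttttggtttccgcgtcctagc
The run lies 117 to 103 bases before the start in Zfp53, 45 to 31 in Zfp52, 148 to 134 in Zfp948 and 237 to 223 in Zfp820, and the letters at its N positions differ between the 4 genes. The likeness goes beyond the capitals. The letters gggaggg closely follow the run in all 4, and agttctggtc comes before it in Zfp53, Zfp52 and Zfp948. The ends of the run are thus those of the search pattern. The RefSeq start lies upstream of the gene start in the deposited table for Zfp53, Zfp52 and Zfp948, and downstream of it for Zfp36.

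For Zfp36, chr7:28379229-28379478, minus strand, the capitals mark the match to the STAT pattern TTCNNNGAA nearest to the start, 17 to 9 bases before it.
Zfp36: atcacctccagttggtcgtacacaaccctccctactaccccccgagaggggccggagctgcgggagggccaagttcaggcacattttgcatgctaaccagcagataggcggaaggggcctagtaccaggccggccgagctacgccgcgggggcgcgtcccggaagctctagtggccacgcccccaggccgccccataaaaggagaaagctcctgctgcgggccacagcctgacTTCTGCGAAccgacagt
Among 4 patterns searched on both strands, TTCNNNGAA was in 15.1% of members' windows and 8.30% of all windows, and the AP-1 pattern TGANTCA in 3.68% and 7.81%. The CRE pattern TGACGTCA was in 3.68% and 1.79%, and the NF-kB pattern in 3.31% and 4.51%. Of the other members whose IL-33 responses were called different between genotypes, Zfp62 and Zfp638 had a window with TTCNNNGAA. The windows of Zfp219, Zfp384, Zfp592, Zfp800, Zfp518a, Zfp712 and Zfp141 held none, and Zfp362 had no window. A match is a string of letters, not a bound site.

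IL-33 lowered a large share of the family in both genotypes. In STAT3-KO cells 126 of 267 members fell and 16 rose, where 30.6% of all 11877 genes tested fell and 20.4% rose (51% in either direction). In WT cells 98 members fell and 10 rose, where 21.6% of all genes fell and 14.5% rose (36.1% in either direction). Calls are from limma on log2(FPKM + 1) at a Benjamini-Hochberg adjusted p under 0.05 over all genes tested. The median difference of IL-33 minus control was −0.58 in STAT3-KO over the members, against −0.18 over all genes, and −0.48 in WT, against −0.14. It was negative for 220 members in STAT3-KO and 216 in WT. The 2 groups of libraries did not overlap for 78.3% of members in STAT3-KO (77% of all genes) and 72.7% in WT (70.4% of all genes), shares close to those of all genes.

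More members fell than rose in each of the 8 fits that left out 1 library, in both genotypes. The number called ranged from 78 to 145 in STAT3-KO and from 48 to 108 in WT, and was lower than with all libraries whenever a library of the genotype itself was left out. In STAT3-KO, 13 rose and 74 fell without IL-33 replicate 1, 12 rose and 75 fell without control replicate 1, and 11 rose and 67 fell without control replicate 2. In WT the median was −0.55 without IL-33 replicate 1 (all genes −0.14) and −0.44 without IL-33 replicate 2 (−0.13). It was −0.47 without control replicate 1 (−0.15) and −0.48 without control replicate 2 (−0.09). A rescaling of libraries by the median of ratios, which moved the median of all genes to −0.02 in STAT3-KO and −0.01 in WT, left 21 higher and 94 lower members in STAT3-KO, where 25.8% and 23.8% of all genes were, and 13 and 69 in WT, where 18.9% and 15.8% were. Their medians were then −0.42 and −0.37. In bulk RNA, fewer cells of a type and less RNA per cell cannot be told apart.

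**Figure D1:**
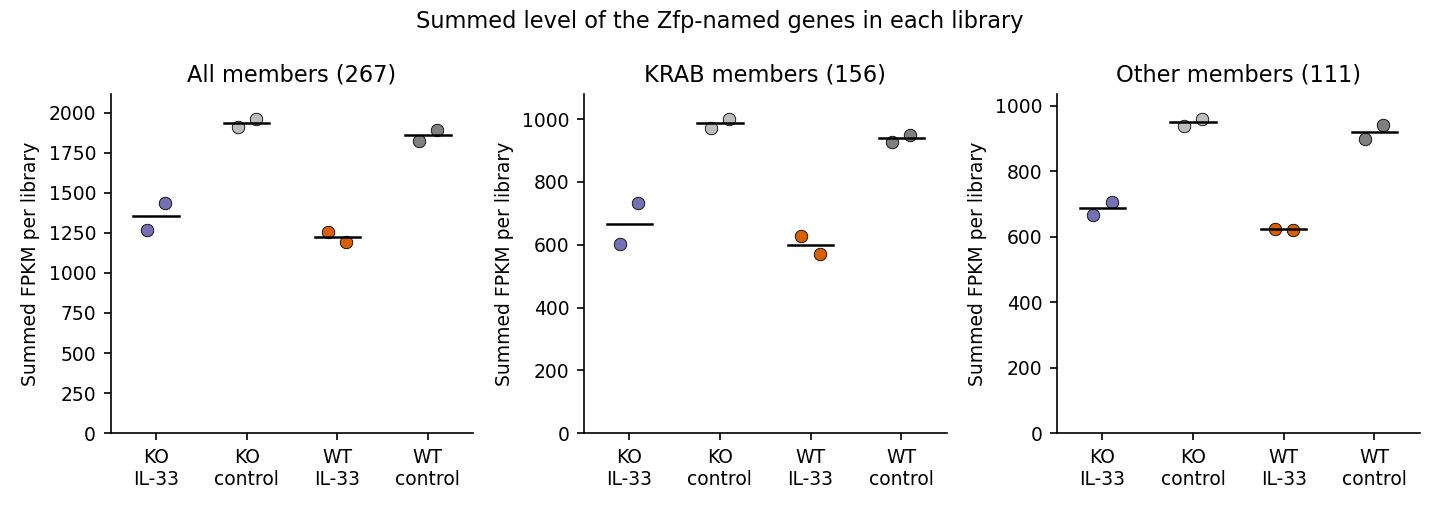
Summed FPKM (vertical axis, from 0) of all 267 members, the 156 KRAB members and the 111 other members in each library, with points for libraries and short horizontal lines for group means. In every panel the 4 libraries with IL-33 sit below the 4 control libraries.

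Added over all members, expression came to 1269 and 1438 FPKM in STAT3-KO with IL-33, against 1910 and 1962 FPKM in STAT3-KO control. It came to 1253 and 1193 FPKM in WT with IL-33, against 1826 and 1892 FPKM in WT control. The groups with and without IL-33 did not overlap in either genotype, as the plot of summed FPKM shows. Members at 1 FPKM or more numbered 206 and 224 in STAT3-KO with IL-33, 252 and 254 in STAT3-KO control, 217 and 212 in WT with IL-33 and 242 and 248 in WT control. This cut also chose the members, and all genes were not counted at it per library, so these numbers are a description.

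Falls outnumbered rises in each class of domain, beside 30.6% of all genes that fell in STAT3-KO and 21.6% in WT. Of 156 KRAB members, 69 fell and 8 rose in STAT3-KO (median −0.56), and 59 fell and 6 rose in WT (median −0.52). Of 10 SCAN members 6 fell and 0 rose in each genotype, and of 66 members with only a C2H2 hit 31 fell and 5 rose in STAT3-KO and 22 fell and 2 rose in WT. Of 32 members with another hit, 17 fell and 3 rose in STAT3-KO and 9 fell and 2 rose in WT, a share of falls in WT (28.1%) near that of all genes. Of the 3 CCCH members 3 fell in STAT3-KO and 2 in WT. Among the 96 members averaging at least 5 FPKM, 57 fell and 7 rose in STAT3-KO, where 31.7% and 26.8% of all genes at that level did. In WT 53 of these 96 fell and 2 rose, where 25.4% and 18.4% of all genes did. Among the 171 members averaging under 5 FPKM, 69 fell and 9 rose in STAT3-KO, where 29.4% and 13.1% of all genes at that level did. Of these 171, 45 fell and 8 rose in WT, where 17.2% and 10.1% of all genes did.

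The members that fell in both genotypes numbered 69, which is 54.8% of the 126 in STAT3-KO and 70.4% of the 98 in WT. Those that rose in both numbered 5, 31.25% of the 16 in STAT3-KO and 50% of the 10 in WT: Zfp52, Zfp296, Zfp385a, Zfp820 and Zfp948. Only Zfp219 was called in opposite directions in STAT3-KO and WT. In STAT3-KO the difference was lower in longer members (Spearman rho of difference with length −0.28 across 267 genes, −0.20 across all genes) and in WT rho was −0.04 and −0.04, a description across genes that share the same libraries. With the trend on length removed in each library, 83 members fell and 21 rose in STAT3-KO, where 22.1% of all genes fell and 24.9% rose, and 68 fell and 14 rose in WT, where 16.3% fell and 19.9% rose.

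**Figure D2:**
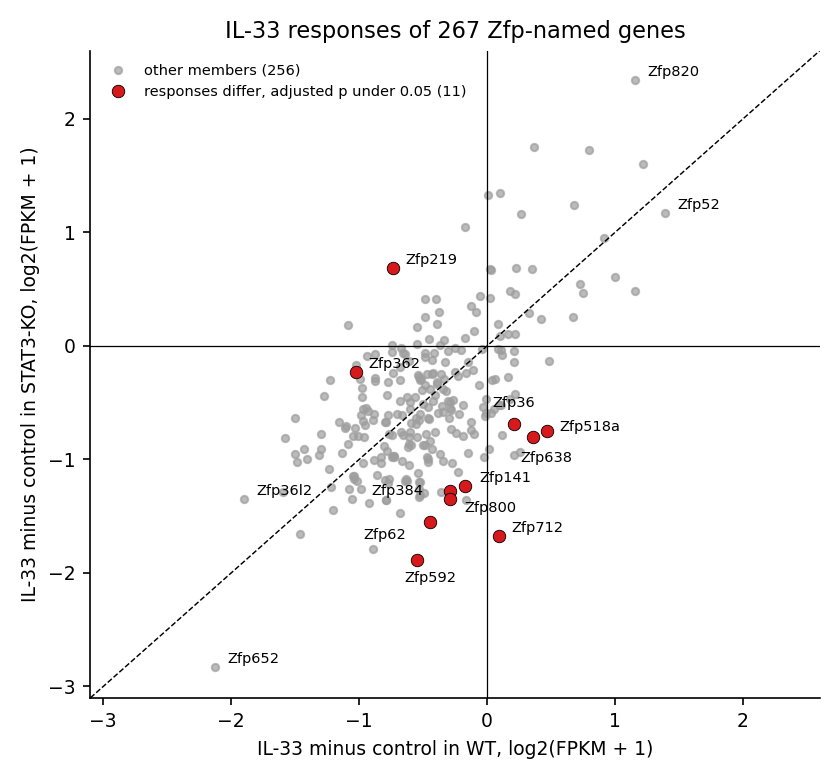
IL-33 response of each of the 267 members in STAT3-KO (vertical axis) against WT (horizontal axis), as the difference of IL-33 minus control on the log2(FPKM + 1) scale; the dashed line marks equal responses. Red points are the 11 members whose responses differed at an adjusted p under 0.05, with Zfp219 above the line and most others below it.

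Among the CCCH genes of mRNA decay, the 3 members behaved differently (the plot of the 3 CCCH genes). Zfp36l2, a factor that restrains cell cycle and cytokine mRNAs in lymphocytes, had 21.7 and 21.9 FPKM in STAT3-KO with IL-33, against 54.2 and 60.3 FPKM in STAT3-KO control. It had 15.8 and 16.0 FPKM in WT with IL-33, against 58.4 and 66.2 FPKM in WT control. It fell by 1.35 (SE 0.12, limma adjusted p = 4.49e-05) on the log2(FPKM + 1) scale in STAT3-KO and by 1.90 (SE 0.12, adjusted p = 1.32e-05) in WT. With IL-33 it was higher in STAT3-KO than in WT by 0.43 (SE 0.12, adjusted p = 0.0215), a call lost when any of those 4 libraries was left out, and the difference between its responses did not pass the test (0.55, SE 0.16, adjusted p = 0.0545).

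Zfp36 (tristetraprolin), the founding member that destabilises Tnf mRNA, was lowest in STAT3-KO with IL-33. It had 10.0 and 14.8 FPKM in STAT3-KO with IL-33, against 19.6 and 21.0 FPKM in STAT3-KO control. In WT it had 24.7 and 23.9 FPKM with IL-33, against 20.6 and 21.2 FPKM in control. It fell in STAT3-KO by 0.69 (SE 0.17, limma adjusted p = 0.0101), a call lost without STAT3-KO control replicate 2 (highest adjusted p = 0.0617). Its difference in WT, 0.21, did not pass (SE 0.17, adjusted p = 0.366). With IL-33 it was lower in STAT3-KO than in WT by −0.94 (SE 0.17, adjusted p = 0.00395), which held in all 8 fits that left out a library. The difference between the responses was −0.90 (SE 0.24, adjusted p = 0.0407) and ranged from −1.16 to −0.64 over those 8 fits, of which 1, that without STAT3-KO IL-33 replicate 2, called it.

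Zfp36l1, the third paralogue, had 5.31 and 4.22 FPKM in STAT3-KO with IL-33, against 8.39 and 7.11 FPKM in STAT3-KO control. It had 2.86 and 3.70 FPKM in WT with IL-33, against 6.66 and 8.23 FPKM in WT control. It fell by 0.60 (SE 0.19, limma adjusted p = 0.0301) in STAT3-KO, a call lost without STAT3-KO IL-33 replicate 2 or either STAT3-KO control library. It fell by 0.98 (SE 0.19, adjusted p = 0.00548) in WT. The difference between STAT3-KO and WT with IL-33, 0.43, did not pass the test (SE 0.19, adjusted p = 0.125), nor did that between the responses, 0.38 (adjusted p = 0.385). In the control groups the 3 genes differed by −0.12 (Zfp36l2), −0.04 (Zfp36) and 0.05 (Zfp36l1), with overlapping libraries and adjusted p of 0.852, 0.987 and 0.983.

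**Figure D3:**
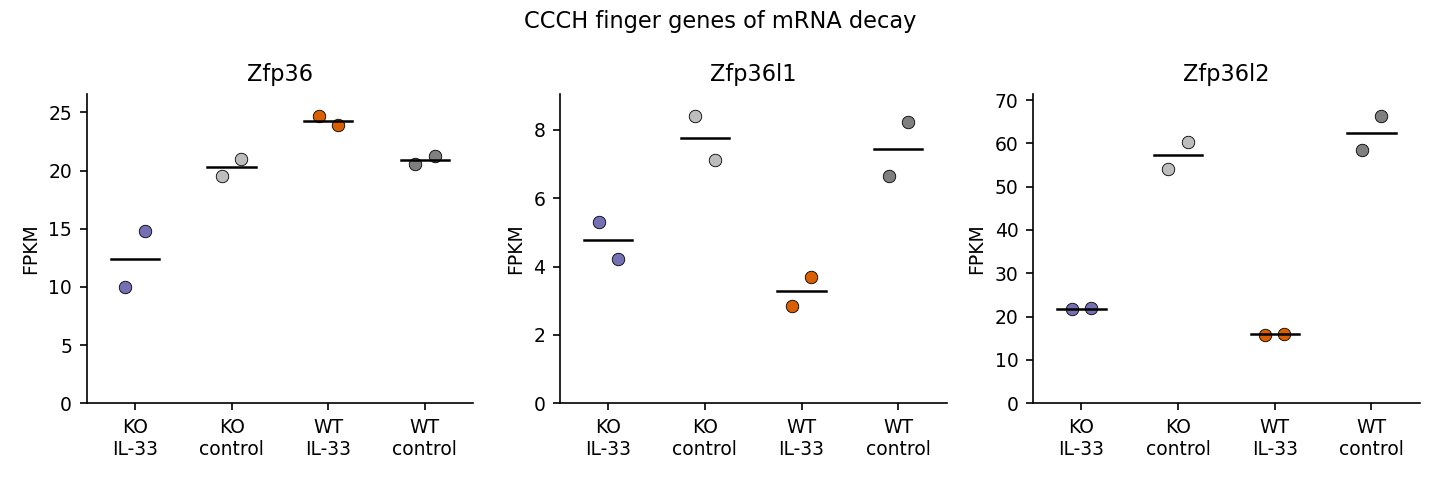
FPKM of Zfp36, Zfp36l1 and Zfp36l2 in each library (points) with group means (short lines) and vertical axes from 0. Zfp36l1 and Zfp36l2 are lower with IL-33 in both genotypes, and Zfp36 is lowest in STAT3-KO with IL-33.

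The machinery these proteins recruit was also followed, and the counts of this and the other lists stand beside falls of 30.6% of all genes in STAT3-KO and 21.6% in WT, and rises of 20.4% and 14.5%. Of 26 tested genes of deadenylation and decay, 15 fell and 2 rose with IL-33 in STAT3-KO, and 9 fell and 1 rose in WT. Cnot6l, a deadenylase subunit, had 13.5 and 15.6 FPKM in STAT3-KO with IL-33, against 31.6 and 35.6 FPKM in STAT3-KO control, and 10.8 and 7.71 FPKM in WT with IL-33, against 30.3 and 35.8 FPKM in WT control. Of 10 tested mRNAs known to bind Zfp36, a list that holds Zfp36 itself, 8 rose and 2 fell in STAT3-KO, and 5 rose and 1 fell in WT. Tnf had 131 and 132 FPKM in STAT3-KO with IL-33, against 39.8 and 33.9 FPKM in STAT3-KO control, and 87.3 and 82.7 FPKM in WT with IL-33, against 34.3 and 30.1 FPKM in WT control. With IL-33, 5 of the 10 were higher and 4 lower in STAT3-KO than in WT, where 16.3% and 16.4% of all genes were. Tnf was among the higher. Il10 was among the lower, with 18.4 and 13.2 FPKM in STAT3-KO with IL-33, against 45.3 and 35.2 FPKM in WT with IL-33. Of 13 other tested CCCH RNA-binding genes, 7 fell and 2 rose in STAT3-KO, and 2 fell and 3 rose in WT. The 3 that rose in WT included Zc3h12a (Regnase-1), an endonuclease of cytokine mRNAs, with 2.85 and 2.42 FPKM in STAT3-KO with IL-33, against 13.1 and 19.3 FPKM in WT with IL-33.

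The most expressed members were Zfp706, Zfp207, Zfp869, Zfp36l2 and Zfp263. Zfp207 (BuGZ), a spindle protein that binds Bub3, stayed between 53.2 and 65.7 FPKM in all 8 libraries and passed the test in neither genotype (0.19 in STAT3-KO and 0.08 in WT, adjusted p of 0.159 and 0.558). Zfp706, a small protein linked to exit from pluripotency, had 71.0 and 61.9 FPKM in STAT3-KO with IL-33, against 68.4 and 68.6 FPKM in STAT3-KO control, and 56.5 and 60.0 FPKM in WT with IL-33, against 76.1 and 68.3 FPKM in WT control. Its differences of −0.05 and −0.30 did not pass (adjusted p of 0.745 and 0.0625). Zfp207 and Zfp706 thus showed no called response, where 142 of 267 members were called in STAT3-KO and 108 in WT.

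Zfp869, a KRAB member on chromosome 8, was the most abundant KRAB gene. It had 25.0 and 37.4 FPKM in STAT3-KO with IL-33, against 63.2 and 63.1 FPKM in STAT3-KO control, and fell by 1.02 (SE 0.17, limma adjusted p = 0.00144). It had 22.2 and 23.0 FPKM in WT with IL-33, against 63.8 and 66.1 FPKM in WT control, and fell by 1.48 (SE 0.17, adjusted p = 0.000341). Zfp263, a SCAN member, had 38.5 and 41.2 FPKM in STAT3-KO with IL-33, against 46.5 and 52.3 FPKM in STAT3-KO control, and did not pass there (−0.30, adjusted p = 0.0942). In WT it had 24.1 and 24.7 FPKM with IL-33, against 35.3 and 44.6 FPKM in control, and fell by 0.68 (adjusted p = 0.00568). With IL-33 it was higher in STAT3-KO than in WT by 0.68 (SE 0.14, adjusted p = 0.00592).

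The steepest fall in both genotypes was that of Zfp652, whose human counterpart is a repressor that binds the co-repressor CBFA2T3. It had 0.413 and 0.904 FPKM in STAT3-KO with IL-33, against 11.2 and 10.2 FPKM in STAT3-KO control, a fall of 2.83 (SE 0.20, limma adjusted p = 1.65e-05). It had 1.55 and 1.21 FPKM in WT with IL-33, against 9.35 and 9.41 FPKM in WT control, a fall of 2.13 (SE 0.20, adjusted p = 0.00012). Its libraries with IL-33 were all several-fold below its controls, and it shared 11.9% of its 50-base transcript runs with another gene. The pseudocount of 1 makes such differences smaller than the ratio of FPKM for genes of low level.

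Other members with steep falls in STAT3-KO included Zfp592 and Zfp62. Zfp592, whose human counterpart belongs to a chromatin complex with ZMYND8, had 2.36 and 4.07 FPKM in STAT3-KO with IL-33, against 13.0 and 15.5 FPKM in STAT3-KO control, and fell by 1.88 (limma adjusted p = 0.000257). Zfp62 had 4.15 and 5.04 FPKM in STAT3-KO with IL-33, against 15.2 and 15.5 FPKM in STAT3-KO control, and fell by 1.55 (adjusted p = 6.13e-05). The other steep falls there were Zfp970 (−1.79), Zfp712 (−1.68), Zfp931 (−1.65), Zfp367 (−1.47) and Zfp871 (−1.45), with adjusted p from 0.000439 to 0.0022; all 8 held in every fit that left out a library. Of these, Zfp970 shared 49.5% and Zfp931 23.3% of their 50-base transcript runs with another gene, so that reads of near copies could be split between them. In all, 49 members shared over 10% of such runs.

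In WT the steep falls beside Zfp652 and Zfp36l2 were those of Zfp467 (−1.59), Zfp59 (−1.58), Zfp943 (−1.50), Zfp65 (−1.50), Zfp869 (−1.48) and Zfp931 (−1.47). Zfp467 (EZI), reported in cultured cells to hold STAT3 in the nucleus, had 0.649 and 1.86 FPKM in STAT3-KO with IL-33, against 4.42 and 4.19 FPKM in STAT3-KO control. In WT it had 0.555 and 1.07 FPKM with IL-33, against 4.23 and 4.58 FPKM in control (limma adjusted p = 0.00321). Its libraries with IL-33 lay below its controls in both genotypes. Zfp59 shared 52.4% of its transcript runs with another gene.

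Few members rose with IL-33. Zfp820, a KRAB gene, had 9.10 and 11.0 FPKM in STAT3-KO with IL-33, against 0.772 and 1.65 FPKM in STAT3-KO control, and rose by 2.34 (SE 0.27, limma adjusted p = 0.000234), the largest rise in the family. It had 0.857 and 1.71 FPKM in WT with IL-33 and was listed at 0.0161 and 0 FPKM in WT control. That rise of 1.15 (SE 0.27, adjusted p = 0.0118) was lost without WT IL-33 replicate 2 (0.88, adjusted p = 0.0901). With IL-33 it was higher in STAT3-KO than in WT by 2.29 (SE 0.27, adjusted p = 0.000535), while the difference between its responses did not pass the test.

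Zfp385a (Hzf), needed for platelet formation in mice, had 2.81 and 1.96 FPKM in STAT3-KO with IL-33, against 0.0519 and 0.163 FPKM in STAT3-KO control, and rose by 1.60 (limma adjusted p = 0.000614). It had 1.16 and 1.50 FPKM in WT with IL-33, was listed at 0 in both WT control libraries, and rose by 1.22 (adjusted p = 0.00392). Only its libraries with IL-33 reached 1 FPKM. Zfp385a thus became a member through the libraries where it was high, so these rises support nothing. Zfp105 had 2.88 and 1.93 FPKM in STAT3-KO with IL-33 and 0.660 and 0 FPKM in WT with IL-33, and was listed at 0 in all 4 control libraries; it became a member through STAT3-KO with IL-33 alone, so no test of it is given. Zfp296, known from work on reprogramming to pluripotency, had 17.8 and 11.1 FPKM in STAT3-KO with IL-33, against 5.25 and 5.51 FPKM in STAT3-KO control, and rose by 1.24 (adjusted p = 0.00232). It had 9.77 and 7.93 FPKM in WT with IL-33, against 5.70 and 4.62 FPKM in WT control.

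The other leading rises in STAT3-KO were Zfp948 (1.73), Zfp428 (1.34), Zfp93 (1.33) and Zfp52 (1.17), of which Zfp93 was called in none of the 4 fits that left out a STAT3-KO library. Zfp93 also shared 20.8% of its 50-base transcript runs with another gene. The other leading rises in WT were Zfp52 (1.39), Zfp365 (1.16), Zfp583 (1.00), Zfp948 (0.80), Zfp54 (0.75) and Zfp768 (0.72). Of these only Zfp52 held in every fit that left out a library: Zfp365 lost its call without WT IL-33 replicate 1, Zfp583 in 3 fits, Zfp948 and Zfp54 in 5 each, and Zfp768 in all 8.

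**Figure D4:**
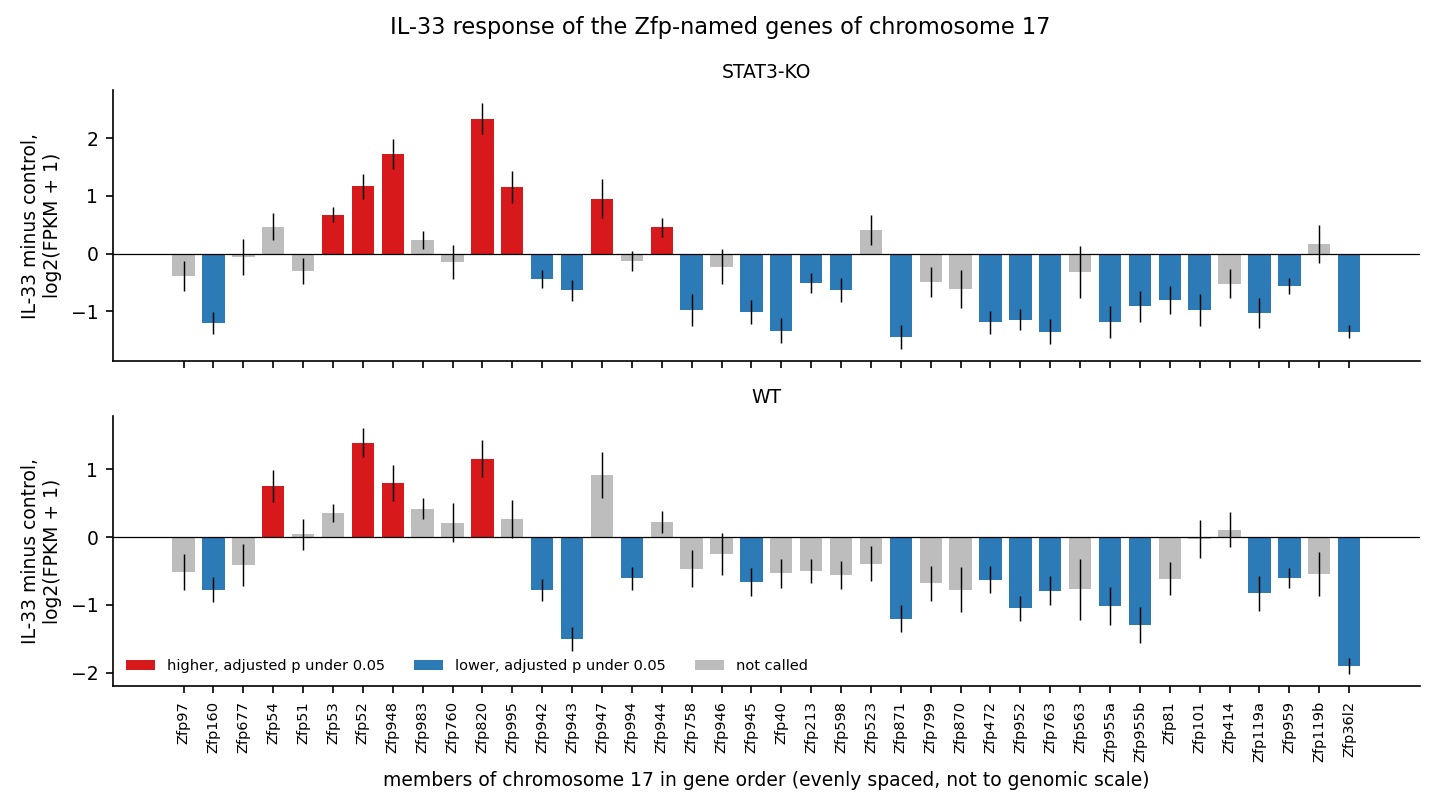
IL-33 minus control on the log2(FPKM + 1) scale (bars, with SE) for the 40 members of chromosome 17 in gene order, in STAT3-KO (top) and WT (bottom); the genes are evenly spaced. Rises gather between Zfp54 and Zfp995, and every bar from Zfp871 to Zfp101 points down (with the length trend removed, 1 of these 11 is positive in each genotype).

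Neighbouring KRAB genes of chromosome 17 moved in opposite ways (the plot of chromosome 17). From Zfp54 to Zfp995 (GRCm38 chr17:21423227-21909926) lay 9 members, all KRAB genes. They were cut from a neighbourhood of 21 members, Zfp160 to Zfp213, in which 7 rose and 7 fell in STAT3-KO (median −0.13) and 4 rose and 5 fell in WT (median 0.04). With IL-33, 5 of the 9 rose and 0 fell in STAT3-KO, with 7 of 9 differences positive (median 0.68). In WT 4 rose and 0 fell, with all 9 positive (median 0.42). Their summed FPKM was 112 and 134 in STAT3-KO with IL-33, against 81.0 and 83.6 in STAT3-KO control, and 97.8 and 102 in WT with IL-33, against 68.7 and 70.7 in WT control. This stretch was picked after its values were seen, so its counts are a description.

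The 4 genes whose promoters share the printed run lie in that stretch. The run was first noticed there, so its place beside rising genes is a description and no independent result. The windows of Zfp54, Zfp983, Zfp760 and Zfp995, in the same stretch, did not hold the run. Zfp53 had 41.5 and 38.7 FPKM in STAT3-KO with IL-33, against 25.6 and 23.8 FPKM in STAT3-KO control, and 30.4 and 27.1 FPKM in WT with IL-33, against 24.0 and 20.6 FPKM in WT control. Zfp52 had 14.7 and 15.8 FPKM in STAT3-KO with IL-33, against 7.46 and 5.16 FPKM in STAT3-KO control, and 17.9 and 23.4 FPKM in WT with IL-33, against 8.36 and 6.18 FPKM in WT control. Zfp948 had 4.74 and 5.49 FPKM in STAT3-KO with IL-33, against 0.569 and 1.17 FPKM in STAT3-KO control, and 1.73 and 1.95 FPKM in WT with IL-33, against 0.342 and 0.991 FPKM in WT control. For these genes and Zfp820 the libraries with IL-33 lay above the controls in both genotypes. All 4 were called higher in STAT3-KO, and all but Zfp53 (limma adjusted p = 0.0587) in WT. Their shared transcript runs were few (from 0.115% for Zfp948 to 3.22% for Zfp820).

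Farther along, from Zfp871 to Zfp101 (chr17:32771236-33394641), lay 11 KRAB members, whose differences were all negative in both genotypes on the deposited scale. In STAT3-KO 8 fell and 0 rose (median −0.98), and in WT 6 fell and 0 rose (median −0.78). This stretch too was picked after the values were seen, and ends before Zfp414, the next member of its neighbourhood. With the length trend removed its medians were −0.61 and −0.62, with 1 of 11 differences positive in each genotype, while the medians of the first stretch were 0.67 and 0.58. There were 7 neighbourhoods of at least 8 members, each within 1 Mb of the next, on chromosomes 6, 7, 13 and 17. That of 18 members on chromosome 13, from Zfp712 to Zfp273, had 12 lower and 0 higher in STAT3-KO and 6 lower and 0 higher in WT. That of 8 members on chromosome 6, from Zfp398 to Zfp775, had 6 lower and 0 higher in STAT3-KO and 4 lower and 0 higher in WT. On chromosome 7, the 8 members from Zfp787 to Zfp772 had 0 lower and 0 higher in STAT3-KO and 2 lower and 1 higher in WT. The 12 from Zfp84 to Zfp146 had 6 lower and 0 higher in STAT3-KO and 5 lower and 1 higher in WT, and the 9 from Zfp553 to Zfp646 had 4 lower and 1 higher in each genotype. These stand beside 30.6% of all genes lower in STAT3-KO and 21.6% in WT.

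Many KRAB proteins act through Trim28, and 19 tested genes of that co-repressor machinery were followed. Whether the KRAB members here bind Trim28 was not tested. With IL-33, 9 fell and 4 rose in STAT3-KO, and 2 fell and 3 rose in WT. Trim28 had 5.99 and 4.64 FPKM in STAT3-KO with IL-33, against 4.85 and 3.61 FPKM in STAT3-KO control, and 3.23 and 3.84 FPKM in WT with IL-33, against 9.45 and 3.86 FPKM in WT control, and passed in neither genotype (limma adjusted p of 0.515 and 0.155). Setdb1, the histone methyltransferase that Trim28 recruits, had 3.56 and 3.70 FPKM in STAT3-KO with IL-33, against 9.38 and 9.58 FPKM in STAT3-KO control (adjusted p = 0.00338). Its WT values were 8.41 and 8.26 FPKM with IL-33, against 6.03 and 10.8 FPKM in control. Dnmt1, the maintenance DNA methyltransferase, had 4.53 and 4.90 FPKM in STAT3-KO with IL-33, against 28.0 and 27.5 FPKM in STAT3-KO control, and 27.8 and 28.1 FPKM in WT with IL-33, against 22.6 and 27.8 FPKM in WT control. The difference between the responses of Dnmt1 was −2.48 (adjusted p = 0.00032). Trim28 and Setdb1 were named here for their role, after their values were seen.

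Members with known roles did not all follow the family. Zfp809, which silences retroviruses through Trim28, had 6.01 and 8.25 FPKM in STAT3-KO with IL-33, against 10.4 and 12.7 FPKM in STAT3-KO control, and fell by 0.63 (limma adjusted p = 0.0191), a call lost without STAT3-KO IL-33 replicate 1 or STAT3-KO control replicate 2. Its WT difference of −0.30 did not pass. Zfp445, which guards imprinted loci, fell by 0.67 in STAT3-KO and 0.79 in WT (adjusted p of 0.0384 and 0.0284), calls lost in 6 and 3 of 8 fits that left out a library. Zfp148 (ZBP-89), which binds GC-rich promoters, had 3.77 and 3.81 FPKM in STAT3-KO with IL-33, against 11.3 and 9.72 FPKM in STAT3-KO control, and 6.14 and 7.12 FPKM in WT with IL-33, against 9.38 and 10.7 FPKM in WT control. It fell by 1.26 (adjusted p = 0.000351) in STAT3-KO and 0.53 (adjusted p = 0.0303) in WT, the second lost when any WT library was left out. With IL-33 it was lower in STAT3-KO than in WT by −0.67 (adjusted p = 0.0131), a call lost without WT IL-33 replicate 2 or STAT3-KO IL-33 replicate 1.

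Zfp335 fell by 0.94 in STAT3-KO (limma adjusted p = 0.0142), a call lost without STAT3-KO IL-33 replicate 1 or either STAT3-KO control library, and its WT difference of 0.25 did not pass. Zfp292 fell by 1.38 in STAT3-KO and 0.92 in WT (limma adjusted p of 0.00228 and 0.0208), the WT call being lost without WT IL-33 replicate 2 or WT control replicate 2. Zfp598, a ubiquitin ligase that senses collided ribosomes, fell by 0.63 in STAT3-KO (adjusted p = 0.0337, lost when any STAT3-KO library was left out), with 0.616 and 0.599 FPKM with IL-33, against 1.27 and 1.75 FPKM in control. Zfp260, a partner of GATA factors in the heart, fell by 0.87 in STAT3-KO (adjusted p = 0.00672, lost without STAT3-KO control replicate 2). Zfp131 fell by 0.54 in STAT3-KO (adjusted p = 0.0435) and Zfp106, an RNA-binding protein needed by motor neurons, by 0.68 in WT (adjusted p = 0.0477), each lost in 6 of 8 such fits. Of the others, Zfp143, a factor of promoters and chromatin loops, had differences of −0.21 in STAT3-KO and −0.11 in WT, Zfp281, a pluripotency factor, 0.05 and −0.34, and Zfp410, an activator of Chd4, 0.13 and −0.10. Zfp91, a ubiquitin ligase of the non-canonical NF-kB pathway, had 0.10 and 0.22, Zfp451, a SUMO ligase, −0.10 and −0.48, Zfp217 −0.53 and −0.36, and Zfp703 −0.13 and −0.43. None of these 7 passed the test in either genotype.

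In control cells no member differed between the genotypes by the test. With limma, 0 of 267 members passed, where 0.463% of all genes did (0.253% higher and 0.21% lower in STAT3-KO). At an unadjusted p under 0.05 there were 10 members (3.75%, against 9.31% of all genes). A pseudocount of 0.1 gave 1 call, Zfp820 (higher in STAT3-KO), and every other setting gave 0. Libraries did not overlap between the genotypes for 32.6% of members (38% of all genes). The median difference was 0.08, against 0.02 over all genes.

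With IL-33, 25 members were higher and 19 lower in STAT3-KO than in WT, where 16.3% and 16.4% of all genes were (32.6% in either direction). These are 9.36% and 7.12% of the family, below the shares of all genes. The median was 0.08, against 0.01 over all genes. The split depended on the libraries: with those of the 2 groups alone 14 were higher and 18 lower, where 11.7% and 12.7% of all genes were. The median was −0.03 without STAT3-KO IL-33 replicate 2 (all genes 0.007) and 0.13 without STAT3-KO IL-33 replicate 1 (0.004). It was 0.08 without WT IL-33 replicate 1 (all genes 0.02) and 0.05 without WT IL-33 replicate 2 (0.006). KRAB members were 13 higher and 5 lower, and members with only a C2H2 hit 8 higher and 11 lower. After Zfp820, and leaving aside Zfp105, the largest positive differences were Zfp428 (1.46), Zfp93 (1.45), Zfp219 (1.31), Zfp395 (1.12), Zfp948 (1.10) and Zfp239 (1.02). Of these, Zfp93 shared 20.8% of its 50-base transcript runs with another gene.

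Zfp395 had 1.21 and 1.44 FPKM in STAT3-KO with IL-33, against 0.0425 and 0.0909 FPKM in WT with IL-33 (limma adjusted p = 0.00635). Its controls had 1.66 and 1.54 FPKM in STAT3-KO and 0.856 and 1.53 FPKM in WT, so its low libraries were those of WT with IL-33. The largest negative differences were Zfp646 (−1.09), Zfp800 (−1.07), Zfp335 (−1.05), Zfp384 (−1.04), Zfp367 (−1.02), Zfp592 (−0.97), Zfp518a (−0.96) and Zfp62 (−0.94). Zfp335, needed for maturing T cells, had 1.32 and 1.51 FPKM in STAT3-KO with IL-33, against 3.54 and 4.49 FPKM in WT with IL-33 (adjusted p = 0.0135). Without WT IL-33 replicate 2 the calls of Zfp646, Zfp335, Zfp592, Zfp518a, Zfp93 and Zfp948 were lost, and without WT IL-33 replicate 1 those of Zfp239 and Zfp948. Without STAT3-KO IL-33 replicate 1 the calls of Zfp335, Zfp592 and Zfp93 were lost, and without STAT3-KO IL-33 replicate 2 those of Zfp646, Zfp335, Zfp518a, Zfp93 and Zfp948. Zfp820, Zfp800, Zfp384, Zfp367, Zfp62, Zfp428, Zfp219 and Zfp395 held in every fit that left out a library.

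**Figure D5:**
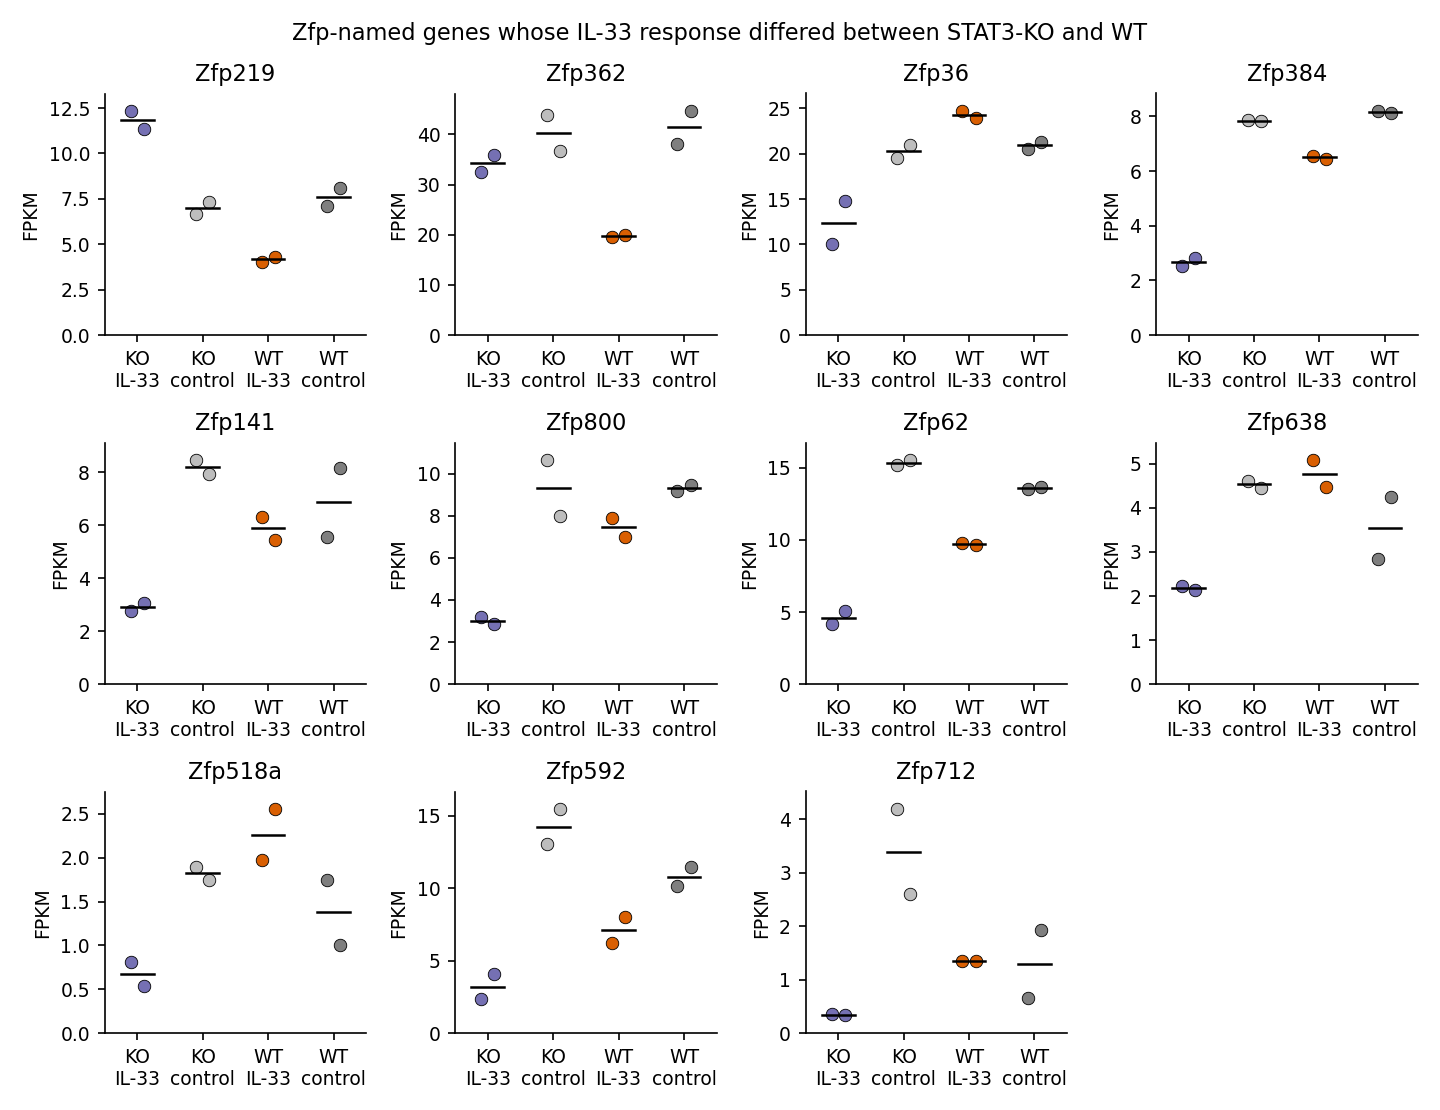
FPKM of the 11 members whose IL-33 response differed between STAT3-KO and WT, in each library (points) with group means (short lines) and vertical axes from 0. Zfp219 and Zfp362 stand higher in STAT3-KO with IL-33 than in WT with IL-33, and the other 9 stand lower.

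The IL-33 response itself differed between the genotypes for 11 members, 2 with a higher and 9 with a lower response in STAT3-KO, where 6.72% and 8.43% of all genes had such a difference (15.1% in either direction). The count ranged from 2 to 14 when a library was left out. Both this count and the shares of all genes called were smaller than with all libraries, except without WT control replicate 2, where they were larger. Zfp219 and Zfp62 were called in all 8 of those fits.

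Zfp219, a partner of Sox9 in cartilage, was the only member called higher in one genotype and lower in the other. It had 12.3 and 11.4 FPKM in STAT3-KO with IL-33, against 6.65 and 7.32 FPKM in STAT3-KO control. In WT it had 4.03 and 4.31 FPKM with IL-33, against 7.13 and 8.09 FPKM in control. It was thus highest in STAT3-KO with IL-33 and lowest in WT with IL-33, with no overlap between any of these groups and their controls. The difference between the responses was 1.42 (SE 0.21, limma adjusted p = 0.00482), and 1.34 to 1.50 without single libraries.

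Zfp362 had 32.6 and 35.8 FPKM in STAT3-KO with IL-33, against 43.9 and 36.8 FPKM in STAT3-KO control, and 19.5 and 19.9 FPKM in WT with IL-33, against 38.2 and 44.6 FPKM in WT control (0.80, SE 0.19, limma adjusted p = 0.0251). Its relative Zfp384 (CIZ, NMP4), a factor of bone matrix genes, had 2.51 and 2.81 FPKM in STAT3-KO with IL-33, against 7.86 and 7.84 FPKM in STAT3-KO control, and 6.57 and 6.43 FPKM in WT with IL-33, against 8.19 and 8.11 FPKM in WT control (−0.99, SE 0.21, adjusted p = 0.017). With IL-33, Zfp362 was thus higher and Zfp384 lower in STAT3-KO than in WT. Zfp62 had 9.79 and 9.63 FPKM in WT with IL-33, against 13.5 and 13.7 FPKM in WT control, and the difference between its responses was −1.11 (SE 0.20, adjusted p = 0.00949). The interaction call was lost without single libraries in 5 of 8 fits for Zfp362 and 4 of 8 for Zfp384.

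The other negative differences between the responses were Zfp712 (−1.77), Zfp592 (−1.34), Zfp518a (−1.22), Zfp638 (−1.16), Zfp800 (−1.06) and Zfp141 (−1.06), with limma adjusted p from 0.024 to 0.0403, each lost in 6 or 7 of 8 fits that left out a library. Of these, Zfp141 shared 14.4% of its 50-base transcript runs with another gene. Zfp638 (NP220), an RNA-binding protein that silences unintegrated retroviral DNA, had 2.23 and 2.13 FPKM in STAT3-KO with IL-33, against 4.61 and 4.46 FPKM in STAT3-KO control, and 5.08 and 4.47 FPKM in WT with IL-33, against 2.85 and 4.24 FPKM in WT control. Zfp800 had 3.19 and 2.84 FPKM in STAT3-KO with IL-33, against 10.6 and 8.00 FPKM in STAT3-KO control, and 7.89 and 6.99 FPKM in WT with IL-33, against 9.18 and 9.46 FPKM in WT control. The 9 members with a lower response had their lowest libraries in STAT3-KO with IL-33.

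Zinc finger factors of lymphocytes under other names gave a comparison outside the family. Of 34 tested, 21 fell and 3 rose with IL-33 in STAT3-KO, and 15 fell and 5 rose in WT. Ikzf1 (Ikaros) had 10.1 and 12.6 FPKM in STAT3-KO with IL-33, against 79.4 and 79.1 FPKM in STAT3-KO control, and 47.7 and 42.3 FPKM in WT with IL-33, against 69.5 and 94.0 FPKM in WT control. Zbtb32, a repressor of lymphocyte activation, had 59.0 and 50.8 FPKM in STAT3-KO with IL-33, against 3.25 and 1.72 FPKM in STAT3-KO control, and 32.2 and 36.4 FPKM in WT with IL-33, against 0.455 and 1.07 FPKM in WT control. With IL-33 9 of the 34 were lower and 2 higher in STAT3-KO than in WT, and in control cells 0 were called.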

How the data were processed

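RNA-seq of 8 libraries was deposited as 1 table of FPKM per gene, made by the authors with Bowtie2 and RSEM on GRCm38, per the submitters' processing notes, with versions and annotation release not given in the sources used here. FPKM hides depth, so reads were recovered from FPKM and GENCODE M21 exon length; 93.5% to 94.6% of values up to 100 reads lay within 0.02 of a whole number, too few for a count test. Replicates correlated at r = 0.971 to 0.983.

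Genes at 1 FPKM or more in at least 2 of 8 libraries (11877) were tested as log2(FPKM + 1) with limma 3.58.1 in R 4.3.3, with 1 mean per group, all 8 libraries, a variance trend, 4 residual degrees of freedom, two-sided moderated tests and Benjamini-Hochberg adjustment over all genes, at 0.05. Tests compared IL-33 with control within each genotype, STAT3-KO against WT in each treatment, and the difference between the responses (interaction). These comparisons share libraries. Tables used Python 3.11.15, numpy 2.4.6 and pandas 2.3.3, and figures matplotlib 3.10.9. The fit was also run on simulated data in which few genes changed, and only in WT with IL-33. That run does not show how calls behave when as many genes change as here.

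Members and lists were chosen with earlier results of these data known. The genes named are the 3 CCCH genes, the 5 most expressed members, up to 8 called members of largest rise and of largest fall without overlap per comparison, members with a well known role, the neighbours of the threshold, and up to 3 called genes of other lists. Genes outside this rule are said to be so, or are members of a stretch shown for its position. Alternatives were other pseudocounts, filters, scalings, variance models, library sets, a replicate block and leaving out single libraries.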

Additional observations from a re-analysis of the deposited data

Results flagged for a closer look

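The IL-33 response differed between STAT3-KO and WT in 11 members by limma's test of the interaction (adjusted p under 0.05), 0.749% of members with a higher and 3.37% with a lower response in STAT3-KO, where 6.72% and 8.43% of all genes had one. The difference of responses, STAT3-KO minus WT, was 1.42 for Zfp219 and 0.80 for Zfp362. It was −1.77 for Zfp712, −1.34 for Zfp592, −1.22 for Zfp518a, −1.16 for Zfp638 and −1.11 for Zfp62. It was −1.06 for Zfp800, −1.06 for Zfp141, −0.99 for Zfp384 and −0.90 for Zfp36. Of these, Zfp219 and Zfp62 were called whichever single library was left out.

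Outside the protein-coding members, 2 Zfp-named pseudogenes had both STAT3-KO libraries with IL-33 above both STAT3-KO control libraries. Zfp422-ps averaged 2.07 FPKM in STAT3-KO with IL-33 (1.82 and 2.31 FPKM, against 1.77 and 1.32 FPKM in STAT3-KO control), and the difference of 0.27 did not pass limma's test (adjusted p = 0.429). Zfp783 averaged 4.50 FPKM in STAT3-KO with IL-33 (4.16 and 4.83 FPKM, against 3.80 and 3.70 FPKM in STAT3-KO control), and the difference of 0.21 did not pass (adjusted p = 0.389).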

How the results depend on the processing

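Without single libraries, the members called ranged from 78 to 145 for IL-33 in STAT3-KO, 48 to 108 for IL-33 in WT, 17 to 49 between genotypes with IL-33 and 2 to 14 for the interaction, and stayed at 0 between genotypes in control. Median differences ranged from −0.66 to −0.48, −0.55 to −0.44, −0.031 to 0.13, −0.12 to 0.063 and 0.02 to 0.11 in the same order. A filter on a mean of at least 5 FPKM leaves 96 members and tests fewer genes. It called 65 of these 96 for IL-33 in STAT3-KO, where 27.6% of all genes were higher and 32.3% lower. It called 59 of 96 in WT (all genes 19.7% higher and 27.4% lower) and 24 of 96 between genotypes with IL-33 (24.3% and 21.7%). No filter on low values called 66 in WT (all genes 6.95% higher and 8.95% lower), 29 between genotypes with IL-33 (7.37% and 7.22%) and 3 for the interaction (2.44% and 2.77%). Median-of-ratios rescaling called 17 for the interaction (7.55% and 8.21%). A pseudocount of 0.1 called 1 member between genotypes in control. The median difference in STAT3-KO was −0.73 with a pseudocount of 0.1, −0.26 with 5, −0.42 after median-of-ratios rescaling and −0.36 with the length trend removed, also with a replicate block. In WT these were −0.65, −0.24, −0.37 and −0.33. Leaving out the 49 members with shared sequence, chosen after seeing the data, gave 12 higher and 106 lower in STAT3-KO and 10 and 79 in WT. Causes of these shifts were not tested.

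Replicate numbers did not pair the libraries (correlations of same-numbered deviations −0.06 to 0.04). A replicate block called 138 members in STAT3-KO, 107 in WT, 44 between genotypes with IL-33, 0 in control and 14 for the interaction.

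Of 115 followed pairs of a gene and a comparison, 82 were called and 45 of these kept the call without any single library. Of 2005 values under other settings 1745 kept direction and side of the threshold, 218 lost the call, 12 gained one and 30 changed sign, none in a called pair. The followed pairs were narrowed from 173 after 79 of 3003 values had been seen to change sign, 0 of them in called pairs. With the length trend removed, with or without the block, the IL-33 difference in STAT3-KO became 0.33 for Zfp106, 0.57 for Zfp451 and 0.18 for Zfp706, and in WT 0.14 for Zfp131, 0.047 for Zfp143 and 0.10 for Zfp410. After median-of-ratios rescaling it became 0.051 for Zfp451 and 0.15 for Zfp706 in STAT3-KO, and 0.087 for Zfp131, 0.038 for Zfp143 and 0.043 for Zfp410 in WT. Without single libraries the range in STAT3-KO was −0.42 to 0.052 for Zfp106, −0.080 to 0.18 for Zfp281, −0.076 to 0.34 for Zfp410, −0.28 to 0.088 for Zfp451 and −0.15 to 0.051 for Zfp706. In WT it was −0.15 to 0.095 for Zfp131, −0.10 to 0.61 for Zfp335 and −0.29 to 0.085 for Zfp410. Between genotypes in control it was −0.092 to 0.0065 for Zfp36 and −0.081 to 0.19 for Zfp36l1.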
